A study of Mus musculus with 4 samples.

Results

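Transcripts of 10 genes that make and load MHC class I molecules were followed in mouse lung tumours labelled as having or lacking the histone methyltransferase Mll4. The genes were chosen by symbol, as those of the class I heavy chains H2-K1 and H2-D1, the light chain B2m, the peptide transporter subunits Tap1 and Tap2, the loading factor Tapbp, the transactivator Nlrc5, and the immunoproteasome subunits Psmb8, Psmb9 and Psmb10. All 10 were found among the 24391 gene symbols of each count table, and all 10 were among the 16001 genes that passed the filter on low counts. Bulk RNA sequencing covered 2 lung tumour samples of the K-Ras group, which carry a K-Ras LSL-G12D allele (an activated K-Ras held silent by a lox-stop-lox cassette until Cre removes it). It also covered 2 samples of the K-Ras Mll4-/- group, which carry the same K-Ras allele and floxed Mll4 (Mll4 fl/fl) and are labelled as lacking Mll4. All tumours were dissociated, cleared of red blood cells and depleted of cells bearing the leukocyte antigen CD45 before RNA extraction. The labels give no strain, age, sex, Cre source or time of collection, and do not say whether the samples of a group came from separate mice, so the p-values measure only the spread between these samples, which may be technical.

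MHC class I molecules display short peptides from the inside of a cell to CD8+ T cells. The peptides are cut from proteins by the proteasome, carried into the endoplasmic reticulum by the TAP transporter and fitted, with the help of tapasin, into a heavy chain paired with beta-2-microglobulin. Interferon gamma raises most genes of the pathway, among them 3 proteasome subunits (Psmb8, Psmb9 and Psmb10) that replace the constitutive catalytic subunits Psmb5, Psmb6 and Psmb7. Nlrc5 encodes the protein that drives class I promoters by binding to a complex of factors assembled on their X and Y elements, and tumours often show low class I expression.

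The proximal promoters of the genes were searched for elements through which the pathway is known to be switched on together. Exact-letter matches to such elements were found in only part of the set. A search by exact letters misses variant sites, so a gene without a match may still carry such an element. RefSeq promoter sequences (GRCm38.p6, a build other than the mm9 of the counts) were available for 8 of the 10 genes, and the 250 bases before the first listed start of each were searched on both strands. A CRE-like core (TGACG, the core of the X2 element) followed after 15 to 25 bases by an inverted CCAAT box (ATTGG, the Y element) was found in 3 of the 8, H2-K1, H2-D1 and B2m, against 0.403% of 27025 promoters. The range of spacing was set after the H2-K1 promoter had been seen. In all 3 the spacer was 20 bases, and its sequence was identical at 13 of 20 positions between H2-K1 and H2-D1 and at 3 of 20 between H2-K1 and B2m. Capitals below mark these elements, matches of the NF-kappa B type (GGG and CCC with 4 bases between them) in the heavy chain promoters (present in 10.1% of promoters, with overlapping matches merged), and a match of the interferon regulatory factor type (GAAA repeated after 2 bases) in B2m (present in 3.04% of promoters). Each sequence is printed 5′ to 3′ on the strand of its gene.
H2-K1, chr17:34000357-34000477, minus strand: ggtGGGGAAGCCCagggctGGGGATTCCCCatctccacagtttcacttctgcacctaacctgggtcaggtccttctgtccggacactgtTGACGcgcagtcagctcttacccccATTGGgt
H2-D1, chr17:35262904-35263024, plus strand: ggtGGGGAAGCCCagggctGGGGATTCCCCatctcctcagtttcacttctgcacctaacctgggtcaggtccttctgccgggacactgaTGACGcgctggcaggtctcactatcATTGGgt
B2m, chr2:122147545-122147640, plus strand: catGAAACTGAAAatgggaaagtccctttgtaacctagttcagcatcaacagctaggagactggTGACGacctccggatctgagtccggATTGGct

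Tap1 and Psmb9 are divergent neighbours on chromosome 17, with 226 bases between their first listed starts, so their windows share 225 bases. The stretch between the starts held 1 CCAAT box next to the Psmb9 start and 1 TGACG core nearer to Tap1, in capitals below. Singly, CCAAT on either strand was found in 34.5% of all promoters and TGACG in 17.9%. Psmb8 and Tap2 follow directly beyond Tap1 in the RefSeq order of coding genes.
Tap1, chr17:34187332-34187476, plus strand: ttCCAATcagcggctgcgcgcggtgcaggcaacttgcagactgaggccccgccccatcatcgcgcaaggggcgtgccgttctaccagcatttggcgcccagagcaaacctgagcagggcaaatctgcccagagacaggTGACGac
Of the other genes searched, Tapbp held 2 CCAAT boxes, Psmb8 held 1 TTCNNNGAA match of the STAT type (present in 7.18% of promoters), and Psmb10 held none of the motifs. These are matches of letters and not measured binding sites.

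Reads assigned to genes ranged from 26683033 to 36677987 per sample. Reads outside annotated genes made up 37.6% and 39.1% of uniquely aligned reads in the K-Ras Mll4-/- samples, against 42.6% and 43.1% in the K-Ras samples. Kmt2d, the gene of Mll4, had 395 and 526 CPM (counts divided by TMM-adjusted library sizes, as edgeR gives them) in the K-Ras samples and 367 and 317 CPM in the K-Ras Mll4-/- samples (log2 fold change -0.43, SE 0.21, edgeR adjusted p = 0.302). With offsets for GC content and transcript length the Kmt2d log2 fold change was -0.0651 (edgeR adjusted p = 0.818). These totals per gene do not resolve the loss of floxed exons, so the deletion is taken from the labels. Of the 16001 tested genes, 6 were called at an edgeR quasi-likelihood adjusted p under 0.05.

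No difference was detected between the genotypes in the class I and immunoproteasome genes. None of the 10 was called (0 of 10, against 0.0375% of all tested genes), and 0 of 10 had an unadjusted edgeR p under 0.05, against 21.8% of all tested genes. DESeq2, which called 10.2% of the genes to which it gave an adjusted p, called 0 of 10. The edgeR likelihood ratio test, which called 9.39% of tested genes, also called 0 of 10, as did limma-voom, which called 0 genes in all. The log2 fold changes, K-Ras Mll4-/- minus K-Ras, ran from -0.26 for Tap2 to 0.30 for B2m, 6 of the 10 were above 0 (4 with total count or upper quartile scaling, where Tap1 and Psmb10 turned negative), and their median was 0.03, beside -0.01 over all tested genes. With offsets for GC content and transcript length, Nlrc5 and Psmb9 turned positive (0.15 and 0.09) and the median of the 10 was 0.11. The median of their absolute values was 0.13, beside 0.33 over all tested genes. That background was not matched on read count, which affects the spread of fold changes. Adjusted p-values lay between 0.333 and 0.974 and SEs between 0.14 and 0.23.

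The precision of these estimates sets what they leave possible. Over the 10 genes, the 95% intervals from the edgeR fit reached down to -0.72 for Tapbp and up to 0.81 for B2m on the log2 scale. As folds, Tapbp ranged from 0.605 to 1.18, Tap2 from 0.647 to 1.07, Nlrc5 from 0.745 to 1.30, Tap1 from 0.785 to 1.33 and B2m from 0.858 to 1.76, and changes within a gene's own interval were not resolved by 2 samples a group. The least abundant of the genes by count, Psmb9, had 508 to 683 reads in each sample.

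**Figure D1:**
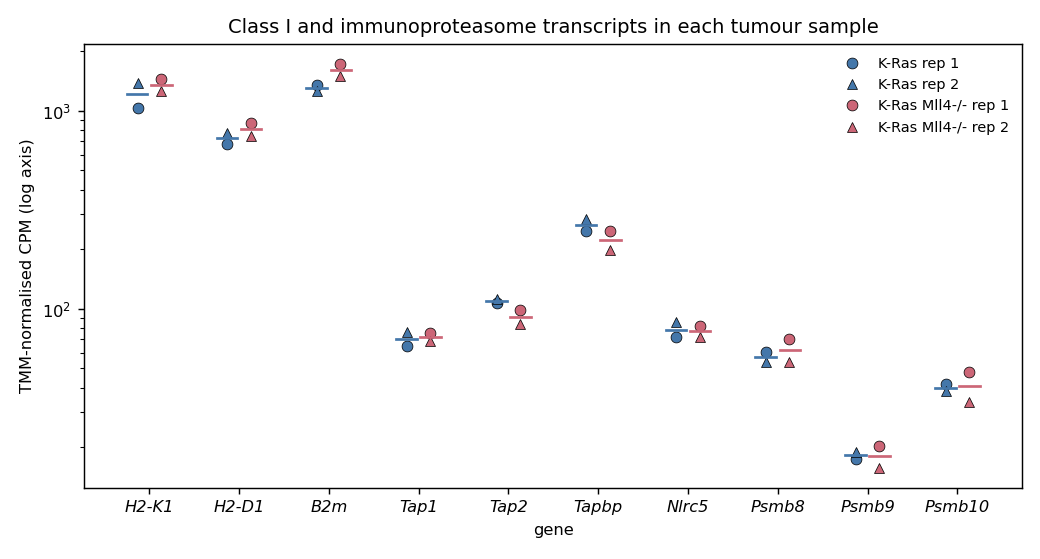
TMM-normalised CPM of the 10 genes in each of the 4 samples (points, log axis), with the mean of the 2 samples of a group as a bar. The K-Ras and K-Ras Mll4-/- points overlap for 8 genes. B2m was higher and Tap2 lower in both K-Ras Mll4-/- samples.

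The heavy chains H2-K1 and H2-D1 bind the peptide and face the T cell receptor. H2-K1 had 1442 and 1252 CPM in the K-Ras Mll4-/- samples, and 1038 and 1385 CPM in the K-Ras samples. The K-Ras samples enclosed the lower K-Ras Mll4-/- value, and the means were 1347 ± 134 and 1212 ± 245 CPM (SD, n = 2 each). The log2 fold change was 0.15 (SE 0.23, edgeR adjusted p = 0.729). With offsets for GC content and transcript length it was 0.21 (edgeR adjusted p = 0.577). H2-D1 had 866 and 748 CPM in the K-Ras Mll4-/- samples, and 680 and 770 CPM in the K-Ras samples. These groups overlapped as well (log2 fold change 0.15, SE 0.19, edgeR adjusted p = 0.658). With those offsets the H2-D1 log2 fold change was 0.25 (edgeR adjusted p = 0.411). Both heavy chains belong to a family of near-identical genes, and reads that aligned to more than 1 place were tallied apart by the counter, so their counts are uncertain. As the strain is not given, whether the mice share the mm9 reference sequence at these genes is not known.

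B2m encodes beta-2-microglobulin, the light chain shared by all class I molecules. It had 1719 and 1493 CPM in the K-Ras Mll4-/- samples, and 1352 and 1263 CPM in the K-Ras samples. Both K-Ras Mll4-/- samples were above both K-Ras samples, the only such case among the 10 genes (1 of 10, against 29.9% of all tested genes). The means were 1606 ± 160 and 1308 ± 62.7 CPM (SD, n = 2 each). The log2 fold change was 0.30 (SE 0.20, 95% interval -0.22 to 0.81, edgeR adjusted p = 0.421). With offsets for GC content and transcript length the log2 fold change was 0.06. B2m, H2-K1 and H2-D1 together took 0.396% and 0.342% of gene-assigned reads in the K-Ras Mll4-/- samples, against 0.323% and 0.337% in the K-Ras samples.

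Tap1 and Tap2 encode the 2 chains of the peptide transporter. Tap1 had 75.6 and 68.6 CPM in the K-Ras Mll4-/- samples, and 64.8 and 76.3 CPM in the K-Ras samples. It varied least of the 10 genes, with the highest sample 1.18-fold above the lowest, and its log2 fold change was 0.03 (SE 0.14, edgeR adjusted p = 0.920). The Tap1 log2 fold change with offsets for GC content and length was 0.20 (edgeR adjusted p = 0.398). Tap2 had 98.2 and 83.5 CPM in the K-Ras Mll4-/- samples, and 106 and 111 CPM in the K-Ras samples. It was the only one of the 10 genes with both K-Ras Mll4-/- samples below both K-Ras samples (1 of 10, against 28.5% of all tested genes). Its log2 fold change was -0.26 (SE 0.14, 95% interval -0.63 to 0.10), with the lowest adjusted p of the 10 genes (edgeR adjusted p = 0.333). With offsets for GC content and length it was -0.0932 (edgeR adjusted p = 0.698).

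Tapbp encodes tapasin, which bridges the transporter and the empty class I molecule. It had 248 and 198 CPM in the K-Ras Mll4-/- samples, and 246 and 283 CPM in the K-Ras samples. K-Ras Mll4-/- replicate 1 lay between the K-Ras samples and the groups overlapped (log2 fold change -0.25, SE 0.18, edgeR adjusted p = 0.467), and with the same offsets the log2 fold change was -0.0885. Nlrc5, the transactivator, had 82.2 and 72.3 CPM in the K-Ras Mll4-/- samples, and 71.6 and 85.4 CPM in the K-Ras samples. Both K-Ras Mll4-/- values lay between the K-Ras values (log2 fold change -0.02, SE 0.15, 95% interval -0.42 to 0.38, edgeR adjusted p = 0.942).

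The immunoproteasome subunits overlapped between the groups in each case. Psmb8, the chymotrypsin-like subunit, had 70.0 and 53.6 CPM in the K-Ras Mll4-/- samples, and 60.5 and 53.9 CPM in the K-Ras samples. The K-Ras values fell between the K-Ras Mll4-/- values (log2 fold change 0.11, SE 0.18, edgeR adjusted p = 0.744). Psmb9 had 20.3 and 15.8 CPM in the K-Ras Mll4-/- samples, and 17.5 and 18.9 CPM in the K-Ras samples. Its log2 fold change of -0.01 (edgeR adjusted p = 0.974, SE 0.19) was the smallest in size of the 10 genes. Psmb10 had 48.2 and 33.7 CPM in the K-Ras Mll4-/- samples, and 41.8 and 38.2 CPM in the K-Ras samples. Its highest and lowest samples were both K-Ras Mll4-/-, 1.43-fold apart, the widest ratio among the 10 genes, and its log2 fold change was 0.03 (SE 0.21, edgeR adjusted p = 0.942).

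**Figure D2:**
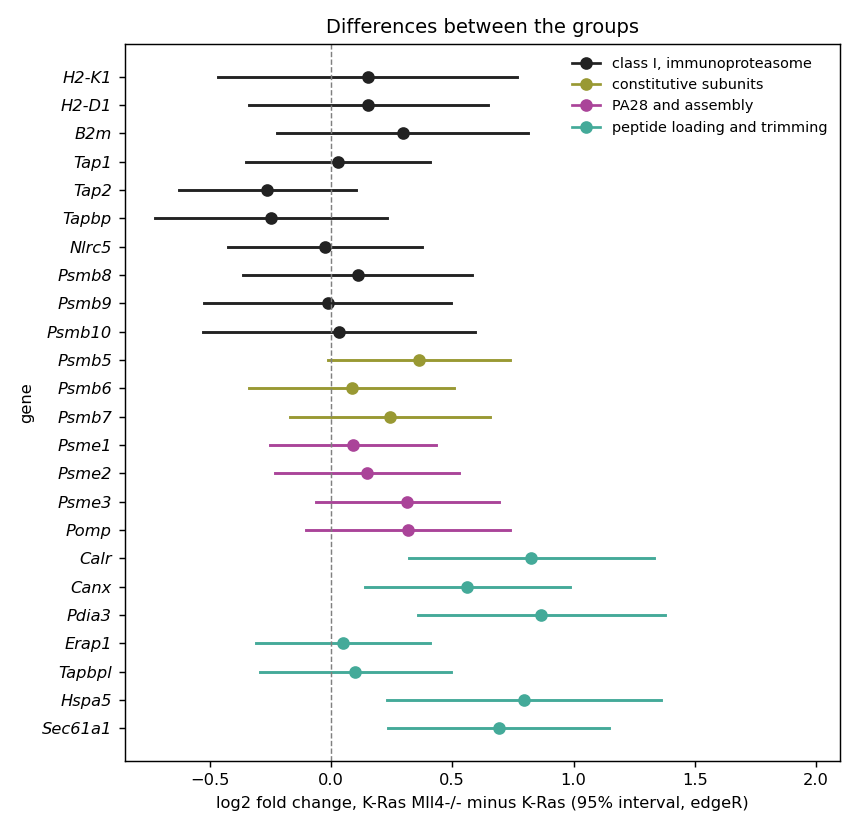
Log2 fold change (K-Ras Mll4-/- minus K-Ras, points) with its 95% interval from edgeR (lines) for the 10 genes, the constitutive catalytic subunits, the PA28 activator and assembly genes and the peptide loading and trimming genes. The intervals of all 10 genes cover 0, while those of Calr, Canx, Pdia3, Hspa5 and Sec61a1 lie above it. No gene shown was called after adjustment over all genes in this fit.

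Levels were set against each other per kilobase of exon (GENCODE M21 basic models). B2m was the most abundant of the 10, at 1469 to 1999 CPM per kb, and ranked from place 10 to place 14 among all genes of a sample. H2-K1 followed at 627 to 871 CPM per kb and H2-D1 at 324 to 412 CPM per kb. Tapbp stood next at 68.5 to 97.8 CPM per kb, clear of its neighbours in the order. Psmb8 (32.9 to 43.0 CPM per kb), Psmb10 (25.7 to 36.7 CPM per kb), Tap2 (24.3 to 32.4 CPM per kb) and Tap1 (21.9 to 25.9 CPM per kb) each overlapped with the next of these 4 in the order. Psmb9 had 11.7 to 15.01 CPM per kb, and Nlrc5 was lowest at 8.82 to 10.5 CPM per kb.

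Ratios within a library do not depend on scaling between libraries, so they were used to compare partners of the pathway. They were not recomputed with offsets for GC content and length, which moved partner genes by different amounts. With 2 samples a group the smallest two-sided p of an exact permutation test is 0.333. In all, 7 ratios were compared, of which H2-K1 to H2-D1 and Tap1 to Tap2 were added after the values were seen. Psmb8 per kb stood at 1.29 and 0.976 times its constitutive counterpart Psmb5 in the K-Ras Mll4-/- samples, and at 1.34 and 1.35 times in the K-Ras samples. Both K-Ras Mll4-/- ratios were thus below both K-Ras ratios, by a mean of -0.26 on the log2 scale (exact permutation p = 0.333, adjusted over the 7 ratios 0.933). Without K-Ras Mll4-/- replicate 2 this difference was -0.0663, and without K-Ras Mll4-/- replicate 1 it was -0.46. Psmb9 per kb was 0.127 and 0.109 times Psmb6 in the K-Ras Mll4-/- samples, and 0.110 and 0.148 times in the K-Ras samples. Psmb10 per kb was 0.769 and 0.527 times Psmb7 in the K-Ras Mll4-/- samples, and 0.702 and 0.804 times in the K-Ras samples. These 2 ratios overlapped between the groups, with mean log2 differences of -0.11 and -0.24 (exact permutation p = 0.667 for each). In the fit with offsets the log2 fold changes were 0.09 for Psmb9 and 0.03 for Psmb6, against -0.01 and 0.09 without them.

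Among the partners in the class I molecule, H2-K1 per kb was 0.436 times B2m in each K-Ras Mll4-/- sample, and 0.399 and 0.570 times B2m in the K-Ras samples. H2-D1 per kb was 0.206 and 0.205 times B2m in the K-Ras Mll4-/- samples, and 0.206 and 0.249 times in the K-Ras samples. K-Ras replicate 2 thus had the highest heavy chain to light chain ratio for both heavy chains. Offsets for GC content and length were not applied to these ratios. In the fit with those offsets the log2 fold changes were 0.21 for H2-K1, 0.25 for H2-D1 and 0.06 for B2m. Without the offsets they were 0.15, 0.15 and 0.30. H2-K1 per kb was between 1.94 and 2.28 times H2-D1 in all 4 samples. Tap1 per kb was 0.897 and 0.958 times Tap2 in the K-Ras Mll4-/- samples, and 0.711 and 0.798 times in the K-Ras samples, a mean log2 difference of 0.30 without overlap (exact permutation p = 0.333, adjusted over the 7 ratios 0.933).

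**Figure D3:**
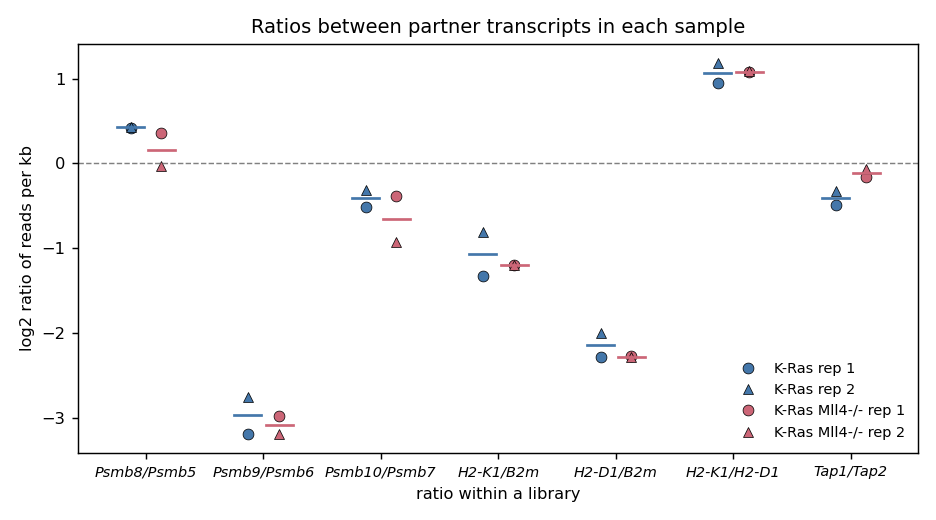
Log2 ratio of reads per kb between partner genes in each sample (points) with group means (bars). Psmb8/Psmb5 was lower and Tap1/Tap2 higher in both K-Ras Mll4-/- samples, and the other 5 ratios overlapped between the groups.

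The neighbouring genes of the pathway were compared in the same fit. Of the 3 constitutive catalytic subunits, 0 were called by the edgeR quasi-likelihood test or DESeq2. Psmb5 had 30.1 and 30.3 CPM in the K-Ras Mll4-/- samples, and 24.9 and 22.1 CPM in the K-Ras samples (log2 fold change 0.36, SE 0.14, edgeR adjusted p = 0.240). Psmb7 had a log2 fold change of 0.24 and Psmb6 one of 0.09 (edgeR adjusted p = 0.412 and 0.784). Of the 4 genes of the PA28 activator and proteasome assembly, 0 were called and all 4 had log2 fold changes above 0, with a median of 0.23. Pomp, the proteasome assembly chaperone, had a log2 fold change of 0.32, as did Psme3, a PA28 subunit (edgeR adjusted p = 0.313 and 0.277).

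The 7 genes of peptide loading and trimming had a median log2 fold change of 0.69. The endoplasmic reticulum lectin chaperone Calr had 1095 and 1212 CPM in the K-Ras Mll4-/- samples, and 599 and 702 CPM in the K-Ras samples. Its log2 fold change was 0.83 (SE 0.19, edgeR adjusted p = 0.163), and it was called by DESeq2 (adjusted p = 0.00320). Pdia3, the disulfide isomerase of the peptide loading complex, had 559 and 700 CPM in the K-Ras Mll4-/- samples, and 326 and 364 CPM in the K-Ras samples. Its log2 fold change was 0.87 (SE 0.19, edgeR adjusted p = 0.157, DESeq2 adjusted p = 0.00533). Of the 7, 0 were called by the edgeR quasi-likelihood test, 5 had an unadjusted edgeR p under 0.05, all higher (against 11.4% of tested genes), and DESeq2 called 5, all higher (against 5.16% of the genes it tested). The 5 were Calr, Canx, Pdia3, Hspa5 and Sec61a1, general chaperones and channel proteins of the endoplasmic reticulum, and each had both K-Ras Mll4-/- samples above both K-Ras samples. Erap1, the peptidase that trims class I peptides, and Tapbpl, a relative of tapasin, had log2 fold changes of 0.05 and 0.10 (edgeR adjusted p = 0.857 and 0.721).

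Other class I heavy chain genes, which include the nonclassical molecules, were tested for 14 of 18 listed symbols. None was called by the edgeR quasi-likelihood test or DESeq2. Of the 14, 0 had both K-Ras Mll4-/- samples above both K-Ras samples (against 29.9%), 6 had both below (against 28.5%), 1 (Mr1) had an unadjusted edgeR p under 0.05 and was lower (against 10.4%), and the median log2 fold change was -0.34. H2-Bl had 261 and 267 reads in the K-Ras Mll4-/- samples, 345 reads in K-Ras replicate 2 and 0 reads in K-Ras replicate 1. That sample alone had no read of it, where 0 reads allow up to 0.103 CPM of gene-assigned reads (3 reads, counting error only). H2-M2 had 16.9 and 8.38 CPM in the K-Ras Mll4-/- samples, and 11.02 and 2.35 CPM in the K-Ras samples (log2 fold change 0.92, SE 0.81, edgeR adjusted p = 0.539). This value was 2.43 without K-Ras replicate 1, 0.18 without K-Ras replicate 2 and 0.33 without K-Ras Mll4-/- replicate 1. Near-identical copies make these counts uncertain, and H2-Q6 had 0 reads and H2-Q7 at most 5 in each sample.

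Upstream of the 10 genes, 10 interferon gamma signalling genes gave 0 calls by the edgeR quasi-likelihood test or DESeq2, and 0 had an unadjusted edgeR p under 0.05 (against 11.4% of tested genes higher and 10.4% lower). Their median log2 fold change was -0.16. Irf1, an interferon-induced factor that binds class I promoters, had 146 and 127 CPM in the K-Ras Mll4-/- samples, and 139 and 176 CPM in the K-Ras samples (log2 fold change -0.21, edgeR adjusted p = 0.513). Ifng itself was scarce, with 30 and 90 reads in the K-Ras Mll4-/- samples, and 58 and 95 reads in the K-Ras samples. Jak1, a kinase of the receptor, had a log2 fold change of -0.28 (edgeR adjusted p = 0.447). Ifngr2, a chain of the interferon gamma receptor, had a log2 fold change of 0.25 (edgeR adjusted p = 0.529), which was -0.00555 without K-Ras replicate 2.

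Of the 12 genes of the class I promoter complex and the NF-kappa B pathway, 0 were called by the edgeR quasi-likelihood test and 1, Nfkbia, by DESeq2 (against 10.2%). Nfkbia, the inhibitor that holds NF-kappa B in the cytoplasm and is itself an NF-kappa B target, had 128 and 93.5 CPM in the K-Ras Mll4-/- samples, and 237 and 256 CPM in the K-Ras samples. Its log2 fold change was -1.16 (SE 0.20, edgeR adjusted p = 0.147, DESeq2 adjusted p = 2.16e-04). Atf1, a factor of the CRE-binding family, had a log2 fold change of 0.31 (edgeR adjusted p = 0.289).

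Interferon gamma target genes outside the class I pathway were tested for 18 of 19 listed symbols, and 0 were called by the edgeR quasi-likelihood test or DESeq2. Both K-Ras Mll4-/- samples were above both K-Ras samples for 9 of the 18 (against 29.9%), with a median log2 fold change of 0.32, and 2 (Gbp6 and Irgm1) had an unadjusted edgeR p under 0.05, both higher (against 11.4%). K-Ras replicate 1 was below K-Ras replicate 2 for 17 of the 18. Cxcl9, a chemokine that attracts T cells, had 15.3 and 17.2 CPM in the K-Ras Mll4-/- samples, and 1.73 and 9.44 CPM in the K-Ras samples (log2 fold change 1.54, SE 0.79, edgeR adjusted p = 0.325). Its log2 fold change was 0.79 without K-Ras replicate 1 and 3.21 without K-Ras replicate 2. Iigp1, an interferon-inducible GTPase, had 96.5 and 128 CPM in the K-Ras Mll4-/- samples, and 47.9 and 86.1 CPM in the K-Ras samples (log2 fold change 0.75, SE 0.33, edgeR adjusted p = 0.275), and its log2 fold change was 0.39 without K-Ras replicate 1 and 1.22 without K-Ras replicate 2.

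The groups did not overlap for 2 of the 10 genes, against 58.3% of all tested genes. K-Ras Mll4-/- replicate 1 was above K-Ras Mll4-/- replicate 2 for all 10 genes, as it was for 50.1% of all tested genes. K-Ras replicate 2 was above K-Ras replicate 1 for 7 of the 10, against 52.2% of all tested genes, with B2m, Psmb8 and Psmb10 as the exceptions. Over the 4 samples, the median ratio of highest to lowest sample was 1.32 for the 10 genes and 1.61 for all tested genes. These sets were not matched on read count either. The genes whose 4 log2 CPM values, each taken from its own mean, lay nearest to the mean profile of the 10 genes were Fv1, Abhd17a and Dus2, with root mean square differences of 0.01, 0.01 and 0.02. Over 4 samples such likeness is a description only.

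Class I genes are active in leukocytes and endothelial cells as well as in tumour cells, and in bulk samples fewer cells of a type and less RNA per cell cannot be told apart. Ptprc, the gene of CD45, was still present after depletion, at 269 and 171 CPM in the K-Ras Mll4-/- samples, and 274 and 143 CPM in the K-Ras samples (log2 fold change 0.08, edgeR adjusted p = 0.930). The summed level of the immune marker list, of which 25 of 26 genes were tested, was 1327 and 686 CPM in the K-Ras Mll4-/- samples, and 1726 and 543 CPM in the K-Ras samples. Of the 25, the edgeR quasi-likelihood test called 0 and DESeq2 called 1 higher, Cd8a (against 5.16%), and 1 lower, Itgam (against 5.08%). Cd8a, a chain of the CD8 coreceptor of T cells that recognise class I, had 11.5 and 13.2 CPM in the K-Ras Mll4-/- samples, and 6.93 and 4.62 CPM in the K-Ras samples (log2 fold change 1.10, edgeR adjusted p = 0.170, DESeq2 adjusted p = 0.0282). The T cell markers Cd3e, Cd3g and Cd4 overlapped between the groups (log2 fold changes 0.18, 0.34 and 0.12). Nkg7, of the same list, was higher in both K-Ras Mll4-/- samples (log2 fold change 0.89) and was not called. The natural killer cell markers Ncr1 and Klrb1c were lower in both (log2 fold changes -0.28 and -0.19) and were not called. Among the 25 tested immune markers, both K-Ras Mll4-/- samples were above both K-Ras samples for 4 (against 29.9%). They were below for 5 (against 28.5%). Itgam, an integrin chain of myeloid cells, had 17.3 and 13.4 CPM in the K-Ras Mll4-/- samples, and 63.3 and 26.9 CPM in the K-Ras samples (log2 fold change -1.55, edgeR adjusted p = 0.186, DESeq2 adjusted p = 0.0101). Other myeloid markers went both ways. Adgre1, Mrc1, Itgax, Cd68, Csf1r and Marco overlapped between the groups (log2 fold changes 0.28, 0.21, 0.04, -0.07, -0.15 and -3.62). S100a8 and S100a9 were lower in both K-Ras Mll4-/- samples (log2 fold changes -1.41 and -1.44) and were not called. The samples numbered 1 were the higher in both groups for the immune sum, and they also held the highest 2 values of Psmb8 and of Psmb10. K-Ras replicate 1, which had the highest immune sum, was the lowest sample for H2-K1, H2-D1, Tap1 and Nlrc5. The 10 endothelial markers summed to 5015 and 3933 CPM in the K-Ras Mll4-/- samples, and 8117 and 7656 CPM in the K-Ras samples. For 8 of them both K-Ras Mll4-/- samples were below both K-Ras samples (against 28.5%), and DESeq2 called these 8 lower (against 5.08% of the genes it tested), while the edgeR quasi-likelihood test called 0. The 10 fibroblast markers summed to 1846 and 1866 CPM in the K-Ras Mll4-/- samples, and 4160 and 2188 CPM in the K-Ras samples. Both K-Ras Mll4-/- samples were below both K-Ras samples for 7 of these 10 (against 28.5%). Of the 7, DESeq2 called 1, Pdgfra (log2 fold change -1.20, DESeq2 adjusted p = 3.83e-05), and the edgeR quasi-likelihood test 0 (Pdgfra edgeR adjusted p = 0.135). Thy1 went the other way, higher in both K-Ras Mll4-/- samples (log2 fold change 0.70, 1 of 10 against 29.9%), and was not called. Lum and Pdgfrb overlapped between the groups (log2 fold changes 0.19 and -0.56). The 10 alveolar type 2 markers, which mark the cells that make surfactant, summed to 25530 and 27040 CPM in the K-Ras Mll4-/- samples, and 19120 and 31110 CPM in the K-Ras samples. The part of cell content in the class I values was not tested.

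**Figure D4:**
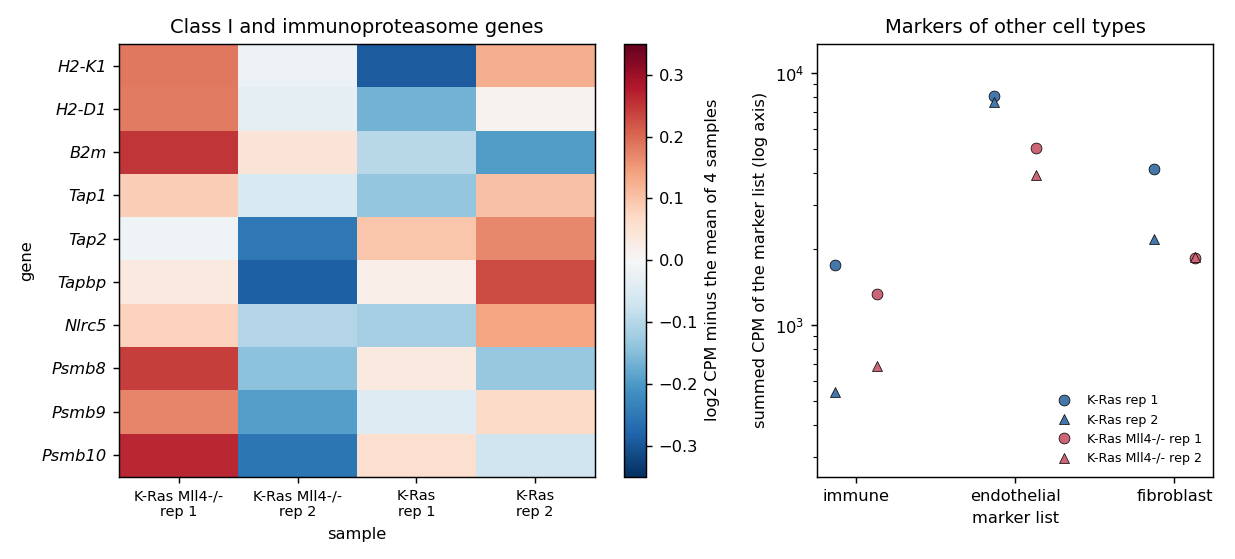
Left, log2 CPM of each of the 10 genes minus its mean over the 4 samples (colour). Right, summed CPM of the immune, endothelial and fibroblast marker lists in each sample (points, log axis). K-Ras Mll4-/- replicate 1 stands above K-Ras Mll4-/- replicate 2 for all 10 genes, and the immune sum is 1327 CPM in the first and 686 CPM in the second. The immune sum is 1726 CPM in K-Ras replicate 1 and 543 CPM in K-Ras replicate 2, while 7 of the 10 genes are higher in K-Ras replicate 2.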

How the data were processed

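The deposited files hold raw read counts per gene symbol, 1 file per sample, which the authors made with HTSeq, with 5 closing tallies that were left out of library sizes. STAR, HTSeq, CASAVA 1.4 and the build mm9 are named, without roles, per the submitters' processing notes. The annotation and strand setting are not given in the sources used here. Groups and replicate numbers came from the sample titles, which name no batch. Counts of all genes were fitted with edgeR 4.0.16 (R 4.3.3), using filterByExpr, TMM scaling and the robust quasi-likelihood test, with Benjamini-Hochberg adjustment over 16001 genes and calls at an adjusted p under 0.05. SEs are the log2 fold change divided by the square root of F, and 95% intervals use the fit's degrees of freedom. DESeq2 1.42.0, limma-voom (limma 3.58.1), the likelihood ratio test, other scalings and filters, the replicate block, offsets for GC content and length (mgcv 1.9.3, GENCODE M21, 15863 genes) and leaving out samples were alternatives. The edgeR, DESeq2 and limma-voom fits were also run on simulated counts with the same dispersion for every gene. That run does not measure how they perform on these data. Motifs were searched by exact letters.

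The 10 genes and all lists were chosen with earlier results of these data known. Named by rule were the 10 genes, Kmt2d, Ptprc, Ifng, Irf1, Psmb5, Psmb6 and Psmb7, any called gene and the 2 largest absolute log2 fold changes of each related list, and the 3 genes nearest in profile. Canx, Hspa5, Sec61a1, Erap1, Tapbpl, Mr1, Gbp6, Irgm1, H2-Q6, H2-Q7 and single genes of the cell type marker lists were added after their values were seen. 1 gene that the rule names is not reported here and was left out of its list. The other marker lists are given as values in the closing section.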

Additional observations from a re-analysis of the deposited data

How the results depend on the processing

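None of the 10 genes was called under any of the 15 alternatives run, where their log2 fold changes stayed between -0.41 and 0.39 and the lowest adjusted p was 0.259. The sign was less fixed: 18 of 150 recomputed values reversed, in 6 genes, while H2-D1, B2m, Tap2 and Tapbp kept theirs. Tap1 and Psmb10 turned to -0.0256 and -0.0269 with upper quartile scaling and to -0.0174 and -0.0208 with total counts. Nlrc5 and Psmb9 turned to 0.15 and 0.0900 with GC and length offsets, and to 0.15 and 0.0814 with the replicate block and those offsets together. Leaving out single samples gave ranges of -0.0361 to 0.36 for H2-K1, -0.0785 to 0.14 for Tap1, -0.14 to 0.0961 for Nlrc5, -0.0897 to 0.28 for Psmb8, -0.20 to 0.15 for Psmb9 and -0.24 to 0.26 for Psmb10, and of -0.10 to 0.20 for the median of the 10. They gave -0.33 to 0.10 for the Psmb9 to Psmb6 ratio, -0.51 to 0.0330 for Psmb10 to Psmb7 and -0.39 to 0.13 for H2-K1 to B2m, and, among other genes, -0.0641 to 11.07 for H2-Bl (the highest is set against 0 reads and depends on the prior count), -0.99 to 0.31 for Ifng, -0.00555 to 0.55 for Ifngr2, -0.0772 to 0.26 for Psmb6 and -0.33 to 0.63 for Ptprc. The cause of these reversals was not tested.

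Over all genes, 6 were called. The count was 44 with no count filter, 1613 with DESeq2, 1503 with the likelihood ratio test and 0 with limma-voom. It was 217 with the replicate block, 393 with both block and offsets, and 0 to 528 when single samples were left out, 528 being without K-Ras replicate 1 and 0 without any other sample. The related lists held 3, 4, 7, 14, 10, 12 and 18 tested genes, and their calls numbered 0 except as follows. DESeq2 called 6, and over all genes it called 10.2% of those to which it gave an adjusted p. The likelihood ratio test called 5, against 9.39% of all tested genes. The block and offsets together gave 1, Nfkbia, against 393 over all genes. Same-numbered samples deviated together at r = 0.213 across genes, and nothing in the labels says what a shared number means. With the replicate block the log2 fold changes were 0.16 for H2-K1, 0.29 for B2m and -0.27 for Tap2, and 0 of the 10 genes were called. With 2 samples a group, leaving 1 out assumes that the lone sample varies like the other group.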

Other observations

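Further marker lists were measured in the same samples. The 6 club cell markers summed to 782 and 595 CPM in the K-Ras Mll4-/- samples, and 719 and 3649 CPM in the K-Ras samples. DESeq2 called 2 of the 6 lower (Scgb1a1 and Scgb3a1, against 5.08% of the genes it tested), and the edgeR quasi-likelihood test called 0. The 10 ciliated cell markers summed to 247 and 251 CPM in the K-Ras Mll4-/- samples, and 271 and 932 CPM in the K-Ras samples. Tubb4b made up most of that sum, at 188 and 185 CPM in the K-Ras Mll4-/- samples, and 160 and 289 CPM in the K-Ras samples. The other 9 ciliated markers were lower in both K-Ras Mll4-/- samples than in both K-Ras samples (9 of 10, against 28.5% of all tested genes). DESeq2 called 6 of the 10 lower (against 5.08%), the likelihood ratio test 5 and the edgeR quasi-likelihood test 0. Foxj1, the regulator of motile cilia, had 12.8 and 16.5 CPM in the K-Ras Mll4-/- samples, and 27.8 and 222 CPM in the K-Ras samples. K-Ras replicate 2 was the highest sample for both airway sums. The 8 alveolar type 1 markers summed to 2117 and 2198 CPM in the K-Ras Mll4-/- samples, and 1756 and 2384 CPM in the K-Ras samples, with members going both ways. DESeq2 called Aqp5 and Akap5 higher (log2 fold changes 1.14 and 1.24, DESeq2 adjusted p = 0.00684 and 0.00646, against 5.16% of the genes it tested). It called Ager lower (log2 fold change -1.10, DESeq2 adjusted p = 0.00205, against 5.08%), and the edgeR quasi-likelihood test called none of the 8. Of the 6 mesothelial markers 3 were tested, and the list sum was almost wholly Krt19 and Msln, which epithelial cells also express. Krt19 had 370 and 610 CPM in the K-Ras Mll4-/- samples, and 78.4 and 187 CPM in the K-Ras samples, and Msln had 120 and 221 CPM against 13.8 and 17.02 CPM. DESeq2 called both higher (against 5.16% of the genes it tested), as did the fit with the replicate block, which called 199 of 16001 genes higher. The edgeR quasi-likelihood test without the block called neither. Of the other 4, Wt1 had 2 to 5 reads in each sample, Upk3b 1 to 23, Uroc1 0 to 4, and Lrrn4 a log2 fold change of -0.40 (edgeR adjusted p = 0.731). Of the 7 red blood cell markers 3 were tested, and the list summed to 16.3 and 24.8 CPM in the K-Ras Mll4-/- samples, and 34.5 and 7.55 CPM in the K-Ras samples. H2-K1, the member of the class I genes with the widest gap between the K-Ras samples, was the higher in K-Ras replicate 2, and its log2 fold change without that sample was 0.36. The part of airway content in these values was not tested.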
